A study of Mus musculus with 20 samples.

Results

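Trimethylation of histone H3 at lysine 4 (H3K4me3) was compared between 2 ChIP-Seq libraries of mouse lineage-negative (Lin-) bone marrow cells, 1 from Ep300Δ/Δ mice (called Ep300-deleted here) and 1 from Ep300Δ/ΔTet2-/- mice (called double-deficient), so that the genotypes differed in Tet2. The autosomal peak lists held 24266 and 26435 peaks, of 591292 peaks in the 12 lists of the series, and merged into 26263 regions. A merged region was termed lost when no peak of the double-deficient list overlapped it by at least 1 bp, gained when no peak of the Ep300-deleted list did, and retained otherwise. The members were thus 2418 lost, 3142 gained and 20703 retained regions.

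The series holds 20 samples, and 1 library was made for each genotype and mark. Peak lists of H3K4me3, H3K27ac and H3K4me1 in WT, Ep300-deleted, Tet2-null and double-deficient cells were used, and the other 8 samples (H3 and H3K27me3) have no peak list among the files analysed here. WT mice were Ep300 fl/fl without Cre, Ep300-deleted mice were Mx1-Cre;Ep300 fl/fl, Tet2-null mice were Ep300 fl/fl;Tet2-/- and double-deficient mice were Mx1-Cre;Ep300 fl/fl;Tet2-/-. All 4 genotypes therefore carried floxed Ep300 on C57BL/6, both sexes were used, and all received poly(I:C) at 6 to 8 weeks of age. Mx1-Cre is driven by an interferon-inducible promoter that also acts outside the blood, whereas Tet2-/- is a germline deletion. The methods give a general time of some weeks after poly(I:C) for experiments without a time of their own, and none for these libraries in particular. The number of animals and any pooling of them were not given for these libraries in the sources used here.

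H3K4me3 is laid down by the SET1 and MLL methyltransferase complexes and marks the promoters of active and poised genes, above all at CpG islands. H3K27ac, which p300 and its paralog CBP deposit, marks active promoters and enhancers, and H3K4me1 lies over enhancers and promoter flanks. TET2 oxidizes 5-methylcytosine, and methylated CpG dinucleotides are a poor substrate for the CXXC-domain proteins that bring H3K4 methyltransferases to unmethylated CpG islands.

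Sequences from regions named later show the range of base composition in both classes, from dense to sparse CpG dinucleotides. They were picked after their values were seen and do not stand for all members of the classes. Each sequence is the plus strand of GRCm38 (mm10) in a stretch free of annotated exons at or near the peak summit, and capitals mark CpG dinucleotides. The first 3 come from lost regions that hold the start of Rufy3 (chr5:88565477-88565596), Slk (chr19:47579614-47579677) and Igsf11 (chr16:38902583-38902702), with 77.5%, 79.7% and 78.3% G and C.
Rufy3: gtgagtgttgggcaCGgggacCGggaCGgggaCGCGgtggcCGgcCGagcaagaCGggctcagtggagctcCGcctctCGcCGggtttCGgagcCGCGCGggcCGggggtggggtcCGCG
Slk: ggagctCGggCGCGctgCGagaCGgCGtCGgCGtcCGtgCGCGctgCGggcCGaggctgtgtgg
Igsf11: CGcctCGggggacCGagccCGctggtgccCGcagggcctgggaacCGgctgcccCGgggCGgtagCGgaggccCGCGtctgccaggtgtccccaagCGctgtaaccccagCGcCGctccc
These held 18, 13 and 14 CpG dinucleotides. Other strong lost regions looked different. That upstream of Rsg1 (chr4:141210690-141210809) and those nearest to Sfpq (chr4:127015622-127015741, intergenic) and Gm28694 (chr1:157067262-157067381, intergenic) held 54.2%, 52.5% and 55.8% G and C with 2, 7 and 0 CpG dinucleotides.
Rsg1: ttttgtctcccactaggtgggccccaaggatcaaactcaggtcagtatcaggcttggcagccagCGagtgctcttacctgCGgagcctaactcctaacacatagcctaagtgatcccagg
Sfpq: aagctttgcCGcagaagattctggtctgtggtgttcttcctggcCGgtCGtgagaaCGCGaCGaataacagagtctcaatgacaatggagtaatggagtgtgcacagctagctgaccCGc
Gm28694: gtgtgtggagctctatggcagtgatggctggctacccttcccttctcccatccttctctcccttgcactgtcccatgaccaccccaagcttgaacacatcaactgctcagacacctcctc
Of the gained regions, those shown are at Fign (chr2:64098039-64098158), Cdk5rap1 (chr2:154353970-154354089), 4930481A15Rik (chr19:5407084-5407203), Mndal (chr1:173878135-173878254) and Ifi203 (chr1:173942017-173942136), and 1 in an intron closest to Gm20628 (chr3:96273621-96273740).
Fign: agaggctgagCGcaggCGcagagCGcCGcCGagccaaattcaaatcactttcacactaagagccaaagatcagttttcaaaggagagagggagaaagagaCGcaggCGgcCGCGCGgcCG
Cdk5rap1: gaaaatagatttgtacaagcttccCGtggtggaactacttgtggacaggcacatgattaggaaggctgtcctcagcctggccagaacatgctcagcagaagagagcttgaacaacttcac
4930481A15Rik: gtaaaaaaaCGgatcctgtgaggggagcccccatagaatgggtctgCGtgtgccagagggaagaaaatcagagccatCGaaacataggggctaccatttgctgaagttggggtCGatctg
Mndal: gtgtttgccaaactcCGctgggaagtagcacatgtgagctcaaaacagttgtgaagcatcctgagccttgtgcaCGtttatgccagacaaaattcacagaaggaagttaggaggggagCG
Ifi203: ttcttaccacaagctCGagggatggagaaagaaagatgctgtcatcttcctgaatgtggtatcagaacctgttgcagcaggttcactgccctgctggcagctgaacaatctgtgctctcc
Gm20628: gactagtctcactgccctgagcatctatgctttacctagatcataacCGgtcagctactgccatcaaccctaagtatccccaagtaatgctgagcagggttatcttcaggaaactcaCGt
The stretch at Fign held 11 CpG dinucleotides at 58.3% G and C, and the other 5 held 1, 4, 3, 1 and 2 at 47.5% to 51.7%.

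Lost regions were 2418 of 23121 Ep300-deleted regions (10.5%, exact 95% interval 10.1% to 10.9%), and gained regions were 3142 of 23845 double-deficient regions (13.2%, 12.7% to 13.6%). All intervals here are exact Clopper-Pearson intervals that cover counting error over regions only. With 1 library a genotype, no difference between genotypes could be tested, and a difference in the share of cell types in the Lin- fraction cannot be told apart from a difference in the mark within cells. The balance of losses and gains depended on the length of the lists. When each list was held to its 24266 strongest peaks, lost regions were 3191 (13.8%) and gained regions 1940 (8.86%), so that the excess of gains became an excess of losses. The covered sequence of the full lists was 26.3 Mb in Ep300-deleted and 26.6 Mb in double-deficient cells.

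Lost and gained regions were narrow and weak. The median width was 289 bp for lost, 269.5 bp for gained and 1141 bp for retained regions. Fold enrichment over the H3 library, as the peak caller gave it, had a median of 4.49 in lost regions, and 13.4% of the Ep300-deleted peaks were weaker than that. The gained regions had a median of 4.17-fold, with 12.97% of the double-deficient peaks weaker. None of the 5780 Ep300-deleted regions in the strongest quartile was lost (upper limit 0.0638%), and 12 of 5780 were in the next one. In the third-strongest quartile 392 of 5780 (6.78%) were lost, and in the weakest 2014 of 5781 (34.8%). Of double-deficient regions, 2, 5, 533 (8.94%) and 2602 (43.6%) were gained from the strongest to the weakest quartile. A peak of the other list lay within 500 bp of 756 lost (31.3%) and 875 gained regions (27.8%), so that part of each class lay next to a peak of the other genotype.

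**Figure D1:**
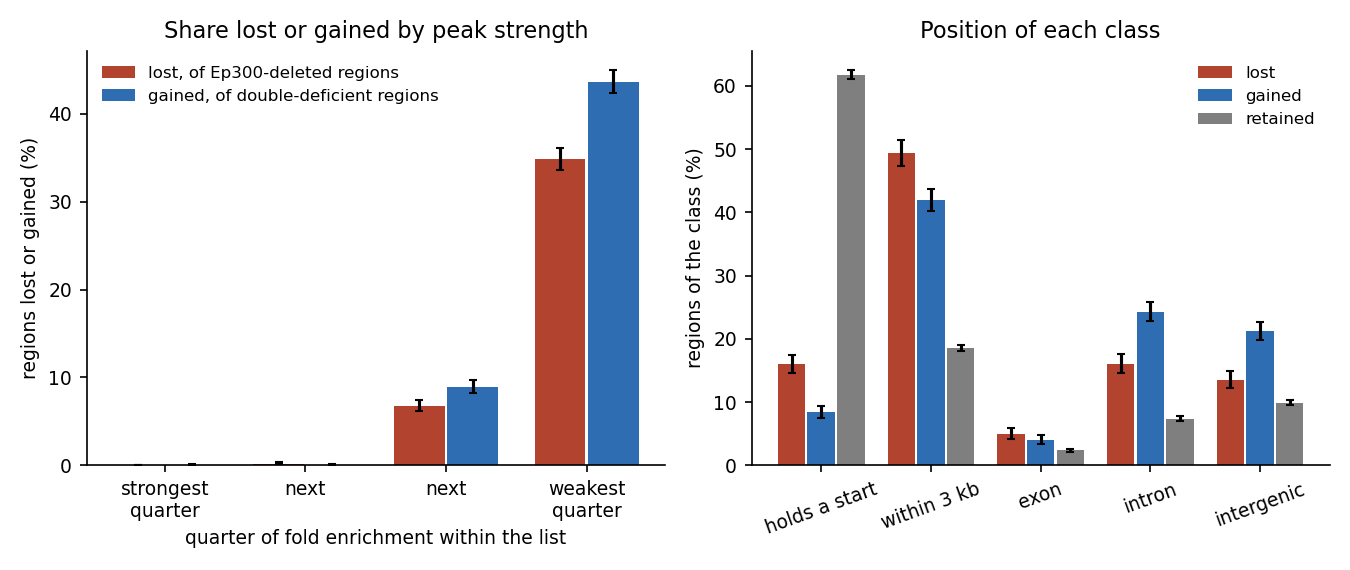
Left, the percent of Ep300-deleted regions lost and of double-deficient regions gained in each quartile of fold enrichment within the own list. Right, the percent of each class by position relative to annotated starts; error bars are exact 95% intervals over regions. Losses and gains sit in the weakest quartile (34.8% and 43.6%), and 61.8% of retained regions hold a start against 16.0% of lost and 8.43% of gained regions.

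Annotated transcript starts were held by 386 lost (16.0%), 265 gained (8.43%) and 12790 retained regions (61.8%). Promoter positions, within 3000 bp of a start, took 65.4% of lost (63.5% to 67.3%), 50.4% of gained (48.6% to 52.2%) and 80.3% of retained regions. Gained regions lay in introns more often (24.3%) than lost regions (16.0%), and in intergenic sequence likewise (21.2% and 13.6%). The median distance to the nearest start was 1367.5 bp for lost and 2941 bp for gained regions. Among lost regions within 3000 bp that held no start, 70.3% lay on the transcribed side of it, as did 67.0% of gained and 59.3% of retained regions. Seen from the place, 2.93% of the Ep300-deleted regions holding a start were lost, whereas 23.7% of those within 3000 bp and 17.1% of those farther away were. The corresponding gained shares were 2.03%, 25.6% and 27.7%. The nearest start belonged to a protein-coding gene for 77.1% of lost and 68.5% of gained regions, and to a lincRNA for 6.37% and 8.94%.

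A region that held a start did not always mark a gene that changed state. Of the 386 lost regions with a start, 197 (51.0%) belonged to a gene without any double-deficient peak within 3000 bp of its starts, and of the 265 gained ones 138 (52.1%) to a gene without an Ep300-deleted peak there. The remainder belonged to genes that had a peak of the other list elsewhere within 3000 bp of a start.

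H3K27ac, whose libraries took no part in the definition of the classes, was present at a minority of lost and gained regions. The lists of a genotype were called against the same H3 library, as far as the methods describe. In lost regions an H3K27ac peak was found at 313 of 2418 in Ep300-deleted (12.9%, 11.6% to 14.3%) and at 159 in double-deficient cells (6.58%, 5.62% to 7.64%). In gained regions the numbers were 433 of 3142 (13.8%, 12.6% to 15.04%) and 513 (16.3%, 15.1% to 17.7%). Retained regions were acetylated at 11238 (54.3%) and 10733 (51.8%). The H3K27ac share was thus lower in the double-deficient library where H3K4me3 was lost and higher where it was gained, with no test between genotypes. With peaks of a −log10 q of at least 5 alone, the lost shares came to 7.07% and 6.12%, with intervals that overlapped (5.93% to 8.35% and 5.06% to 7.33%), and the retained shares to 47.7% and 52.2%, in the opposite order. The H3K27ac lists were of unequal length, with 22190 autosomal peaks in Ep300-deleted and 17846 in double-deficient cells, and 7.24% of the former against 0.784% of the latter had a q-value above 0.05. At equal length the Ep300-deleted shares were 8.85% for lost, 10.6% for gained and 49.5% for retained regions, against the same 6.58%, 16.3% and 51.8% in double-deficient cells. Neither list had an H3K27ac peak at 85.4% of lost, 79.5% of gained and 41.3% of retained regions.

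Part of the acetylated regions differed in the same direction in both marks. Of the 313 lost regions acetylated in Ep300-deleted cells, 194 (62.0%, 56.4% to 67.4%) had no H3K27ac peak in double-deficient cells, compared with 12.7% of retained, 30.3% of gained and 14.6% of all such regions. In the other direction, 211 of 513 gained regions acetylated in double-deficient cells (41.1%, 36.8% to 45.5%) had no H3K27ac peak in Ep300-deleted cells, compared with 8.54% of retained, 25.2% of lost and 10.2% of all such regions. Most acetylated members were distal. Of lost regions over 3000 bp from a start, 199 of 837 (23.8%) were acetylated in Ep300-deleted and 108 (12.9%) in double-deficient cells, whereas of those holding a start 14 and 7 of 386 were. Distal gained regions were acetylated at 291 of 1558 (18.7%) and 337 (21.6%), and gained regions with a start at 21 and 32 of 265.

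H3K4me1 went with H3K4me3 as well. An H3K4me1 peak overlapped 72.0% of lost regions in Ep300-deleted and 60.6% in double-deficient cells. For gained regions the shares were 64.0% and 75.9%, and for retained regions 80.0% and 80.4%. Of regions with H3K4me1 in Ep300-deleted cells, 22.0% of the lost, 6.32% of the gained and 8.40% of the retained had none in double-deficient cells. Of those with H3K4me1 in double-deficient cells, 7.37% of the lost, 21.1% of the gained and 8.90% of the retained had none in Ep300-deleted cells. H3K27ac and H3K4me1 were each set beside H3K4me3 separately, and regions where all 3 marks differed together were not counted.

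**Figure D2:**
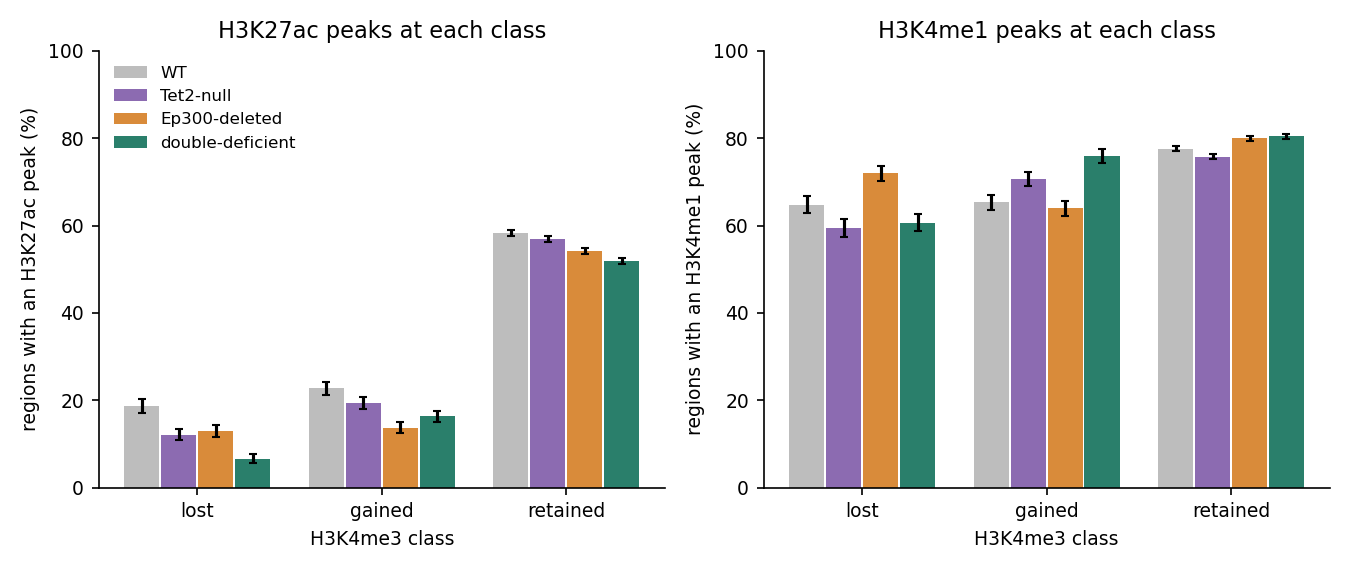
Percent of lost, gained and retained H3K4me3 regions that overlap an H3K27ac peak (left) or an H3K4me1 peak (right) in each of the 4 genotypes, 1 library each; error bars are exact 95% intervals over regions. In lost regions the double-deficient bars are below the Ep300-deleted ones (6.58% against 12.9% for H3K27ac), and in gained regions they are above them (16.3% against 13.8%).

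WT and Tet2-null cells also differ in Tet2, with Ep300 intact, and their H3K4me3 libraries are separate from those that defined the classes. Among lost regions, 632 (26.1%) had a peak in both lists, 592 (24.5%) in WT alone, 292 (12.1%) in Tet2-null alone and 902 in neither. Among gained regions, 945 (30.1%) had a peak in both, 261 (8.31%) in WT alone, 755 (24.0%) in Tet2-null alone and 1181 in neither. Retained regions had peaks in both lists at 19127 of 20703 (92.4%). Of regions with a WT peak, the Tet2-null list lacked 592 of 1224 lost (48.4%, 45.5% to 51.2%), 261 of 1206 gained (21.6%, 19.3% to 24.1%) and 345 of 19472 retained regions (1.77%), and 5.47% of all regions. Of regions without a WT peak, the Tet2-null list had 24.5% of lost, 39.0% of gained and 64.7% of retained regions, and 42.3% of all.

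Where exactly 1 of these lists had a peak, it was the WT list for 67.0% of lost (63.8% to 70.1%), 25.7% of gained (23.0% to 28.5%), 30.2% of retained and 39.4% of all regions. The order of lost above gained was the same at starts (84 of 127 lost and 21 of 89 gained regions), within 3000 bp of them (288 of 435 and 123 of 400) and farther away (220 of 322 and 117 of 527). It was also the same in regions with under 60% G and C (445 of 644 and 246 of 930), and when the lists were held to equal length, with 827 lost regions in WT alone against 286 in Tet2-null alone, and 195 against 431 gained regions. In the third-strongest quartile of fold the shares were 75.5% and 18.0%. For H3K27ac, 229 of 450 lost regions acetylated in WT (50.9%) had no peak in Tet2-null cells, compared with 34.5% of gained and 9.94% of retained regions. In the other direction the classes were close, since 25.1% of lost and 23.3% of gained regions acetylated in Tet2-null cells had no WT peak. Gained regions were acetylated at 715 in WT and 610 in Tet2-null cells, with 247 in WT alone and 142 in Tet2-null alone. The WT H3K27ac list was longer, with 29012 autosomal peaks against 23970 in Tet2-null cells, retained regions also had more peaks in WT alone (1202) than in Tet2-null alone (896), and lists of equal length were not compared for this pair. Neither list held an H3K4me3 peak at 37.3% of lost and 37.6% of gained regions.

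**Figure D3:**
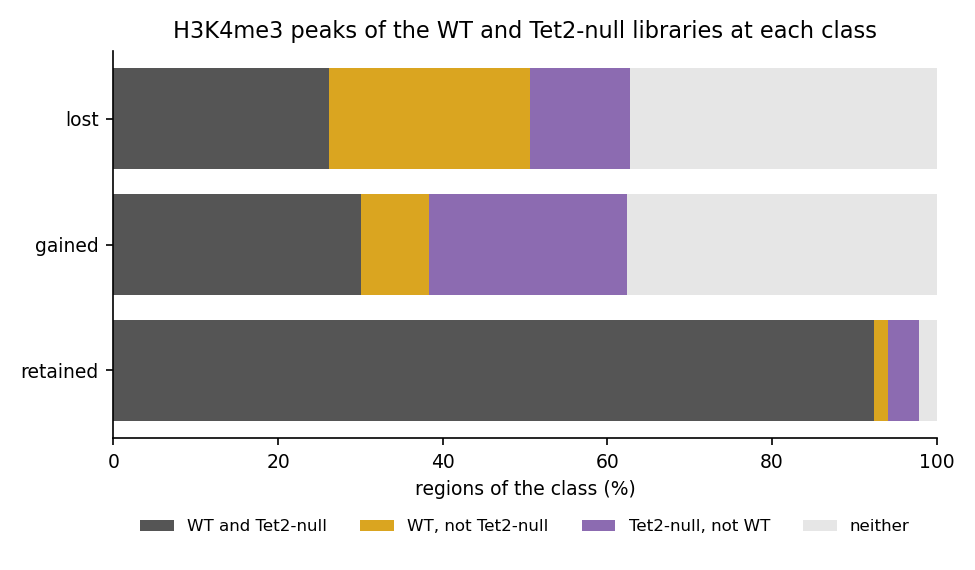
Percent of each H3K4me3 class by presence of an H3K4me3 peak in the WT and Tet2-null libraries, which were not used to define the classes. Peaks in WT alone make up 24.5% of lost and 8.31% of gained regions, and peaks in Tet2-null alone 12.1% and 24.0%.

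Lost and gained regions differed in base composition. In the 300 bases at the midpoint of the region, the median content of G and C was 53.8% for lost, 50.3% for gained and 57.7% for retained regions, and the ratio of observed to expected CpG around the summit was 0.395, 0.311 and 0.667. Losses extended to high content, where gains were few. At 65% G and C or more there were 606 lost and 55 gained regions, and at 75% or more 100 lost and 0 of 970 double-deficient regions gained (upper limit 0.380%). Below 50% there were 676 lost and 1467 gained regions. These limits were chosen after the values were seen. The counts were close in other windows, with 593 and 48 at 65% or more around summits and 587 and 44 over whole regions. The share of GC-rich regions that was lost, however, depended on the window, from 9.35% at the midpoint to 74.1% over whole regions for 75% or more. Around summits it was 31.0% when the Ep300-deleted summit of retained regions was used and 72.9% when the double-deficient one was. The lost regions with 65% or more lay at promoters in 534 of 606 cases (88.1%), and 244 of them held a start, yet only 1 had an H3K27ac peak in Ep300-deleted and 2 in double-deficient cells. Gained regions of that content were alike (0 and 1 of 55), whereas 57.3% and 53.7% of retained ones had H3K27ac. Of the lost regions with under 60%, 303 of 1633 were acetylated in Ep300-deleted cells (18.6%) and 152 (9.31%) in double-deficient cells.

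The lists as a whole differed in the same direction. At the 19127 regions with a peak in all 4 libraries, the 300 bases around the summit had a median of 61.0% G and C in WT, 62.0% in Ep300-deleted, 59.7% in Tet2-null and 58.7% in double-deficient cells. Summits with 70% or more made up 5.30%, 12.7%, 2.61% and 1.88%. Of the 20703 retained regions, the Ep300-deleted summit lay in richer sequence in 13261 (64.1%) and the double-deficient one in 5430 (26.2%). Of regions with both WT and Tet2-null peaks, the Ep300-deleted list held 90.4% at under 45% G and C and 971 of 971 at 75% or more, while the double-deficient list held 97.3% and 98.1%. Between WT and Tet2-null the imbalance was smaller, with 199 WT regions absent from Tet2-null and 155 regions in the other direction at 65% or more. At 75% or more it had the same direction, with 24 and 4 regions. Base composition also bears on how fragments are amplified and recovered in a library, and its part in the result was not tested.

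**Figure D4:**
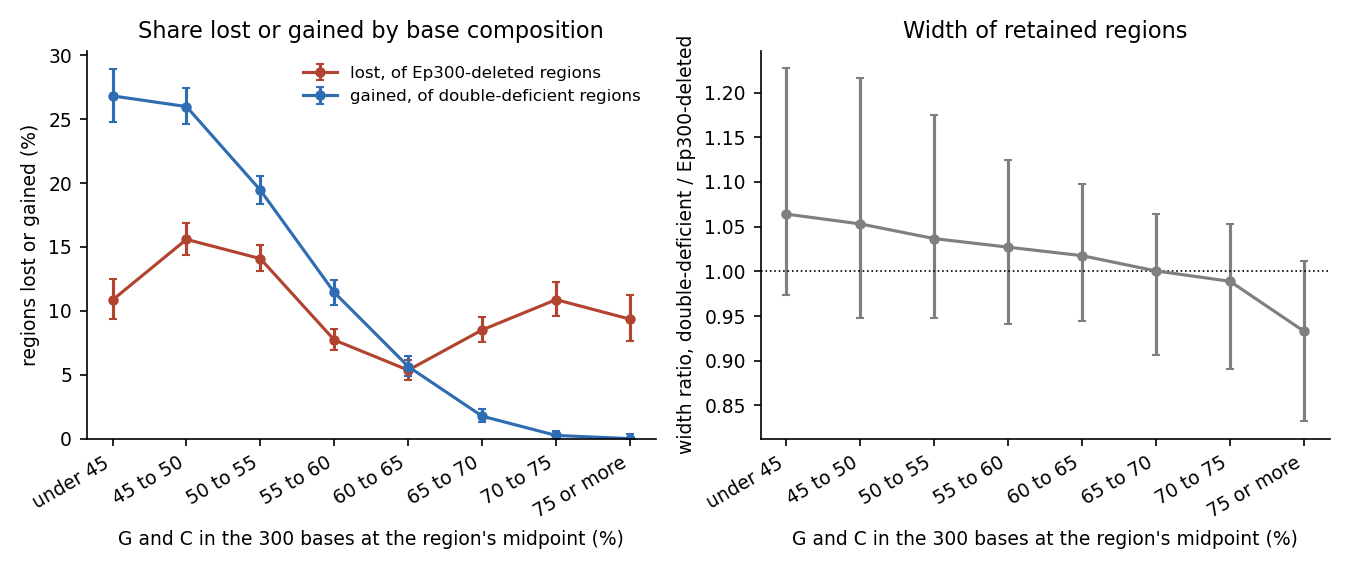
Left, the percent of Ep300-deleted regions lost and of double-deficient regions gained by content of G and C at the midpoint of the region, with exact 95% intervals. Right, for retained regions, the median ratio of bases covered in double-deficient to Ep300-deleted cells, with the quartiles as bars. Gains go from 26.8% under 45% to 0% at 75% or more, losses lie between 5.36% and 15.6%, and the width ratio goes from 1.06 to 0.933.

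Motif letters near the summit, searched on both strands within 150 bp, differed in frequency between the classes. The GC box GGGCGG, bound by SP and KLF factors, was found in 29.7% of lost, 14.1% of gained, 42.0% of retained and 37.5% of all regions. Letters of hematopoietic factors were more frequent in gained regions. AGATAA of GATA factors was in 10.5% of lost, 13.1% of gained and 7.44% of all regions, TGTGGTT of RUNX factors in 5.58%, 8.43% and 4.98%, and GAGGAAGT of PU.1 in 3.18%, 5.16% and 3.07%. PU.1 shares GGAAGT with the ETS letters CCGGAAGT, which were in 0.910%, 0.827% and 1.92%. In sequence with under 60% G and C the GATA shares were 14.7% for lost, 13.8% for gained and 12.3% for all regions, so that the order of lost and gained turned. Those of RUNX were 7.22%, 8.89% and 7.56%, and those of PU.1 3.88%, 5.36% and 4.38%. The intervals of lost and gained regions overlapped there for RUNX (6.01% to 8.57% and 7.88% to 9.99%) and PU.1 (3.002% to 4.93% and 4.57% to 6.25%). The MYB letters TAACNG were in 22.5% of lost, 27.8% of gained and 20.6% of all regions, and in 28.7%, 29.0% and 27.6% under 60% G and C.

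Among lost regions holding a protein-coding start, the strongest was at Ranbp9, a scaffold protein of an E3 ubiquitin ligase complex (chr13:43480851-43481330). Its peak had 26.1-fold enrichment in the Ep300-deleted list, where 62.5% of peaks were weaker, and the region had peaks of 5.72-fold in the WT and 6.77-fold in the Tet2-null list. Rufy3, an adaptor of endolysosomal transport (23.7-fold), Slk, a STE20-like kinase (23.5-fold), and Eid2, named for its interaction with EP300 (22.4-fold), followed. Igsf11, an adhesion molecule of the immunoglobulin superfamily (18.8-fold), Slc2a13, a myo-inositol transporter (15.7-fold), Gm2237 (15.2-fold), Zbtb10 (14.5-fold), Ctnnb1, which encodes β-catenin (14.4-fold), and Marcksl1 (13.9-fold) completed the first 10.

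These 10 regions had 69.7% to 81.3% G and C around the summit and none had H3K27ac in any genotype. In 9 of them the next double-deficient peak was only 80 to 305 bp away, and the gene was retained. The exception was Igsf11 (chr16:38902289-38902811), whose nearest double-deficient peak was 158854 bp away and whose promoter therefore went from marked to unmarked. The WT list had a peak at 9 of the 10 regions (not Eid2) and the Tet2-null list at 8 (not Zbtb10 and Ctnnb1). At Slk the Tet2-null peak was 1265 bp wide and 58.9-fold enriched, and 97.9% of its list was weaker. The WT peak was 235 bp wide and 8.17-fold enriched.

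Away from starts the strongest lost regions were of the other kind. The 5 with the highest fold lay 4603 to 17014 bp from the nearest start, with 50.3% to 53.7% G and C. They were in an intron closest to Atg4c, an autophagy protease (17.8-fold, chr4:99199761-99200374), and in intergenic sequence upstream of Sfpq, a splicing factor (17.7-fold, chr4:127015536-127016070), Bmf, a pro-apoptotic BH3-only protein (16.6-fold, chr2:118554290-118554798), and the lincRNA Gm28694 (16.3-fold, chr1:157066913-157067487), and downstream of the pseudogene Gm8990 (15.1-fold, chr13:108292811-108293736). All 5 had an H3K27ac peak in Ep300-deleted cells and none had one in Tet2-null or double-deficient cells, while 3 had one in WT cells (Sfpq, Bmf and Gm28694). H3K4me3 peaks were in the WT list at 4 of the 5 and in the Tet2-null list at Atg4c and Sfpq. At Gm28694 the WT peak was 26.1-fold enriched and no Tet2-null peak was found.

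The same combination at promoters was sought by rule, so that H3K27ac was part of the choice of the next 5 regions, which had it in Ep300-deleted but not in double-deficient cells. The strongest was 2745 bp upstream of Rsg1, a small GTPase of cilium formation (19.3-fold, chr4:141210566-141211211). Lrp6, a Wnt coreceptor (11.8-fold), Itpr2, an inositol trisphosphate receptor (11.1-fold), 2610035D17Rik (9.92-fold) and Gm47586 (9.72-fold) followed. All 5 had a WT H3K4me3 peak, and Rsg1 and 2610035D17Rik lacked a Tet2-null one. The genes themselves were retained through other peaks.

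The strongest gained region stood higher within its list than the strongest lost region did. At or above the median fold, however, gained regions (7) were fewer than lost ones (18). The highest gained region lay 12 bp from the start of Cdk5rap1, an enzyme that modifies mitochondrial tRNA (chr2:154353501-154354332). It was 48.0-fold enriched in double-deficient cells, with 96.6% of the list weaker, and was 22.2-fold in WT and 28.5-fold in Tet2-null cells, and the nearest Ep300-deleted peak was 17726 bp away. H3K27ac was present there in WT, Tet2-null and double-deficient cells and absent in Ep300-deleted cells, so that Ep300-deleted was the library without either mark. The same held for 4930481A15Rik, annotated as an antisense transcript (26.2-fold, chr19:5406750-5408008), with WT at 17.3-fold and Tet2-null at 23.4-fold. Another gained region of that gene (13.7-fold, chr19:5405878-5406642) lay 98 bp upstream of a start. Mndal, of the interferon-inducible p200 family (23.3-fold, chr1:173877947-173878580), had H3K27ac in double-deficient cells alone, and the pseudogene Gm6501 (15.2-fold) in Tet2-null and double-deficient cells. H3K27ac in double-deficient and not in Ep300-deleted cells was part of the choice of these 5.

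The gained region of highest fold over 3000 bp from a start lay in an intron, 3106 bp from a start of Gm20628 (30.6-fold, chr3:96273395-96274544). WT cells had no H3K4me3 peak there and Tet2-null cells had a 10.9-fold one, and H3K27ac was found in Tet2-null and double-deficient cells only. Rbbp8, which encodes the DNA end resection factor CtIP (12.6-fold), Gm13858 (11.9-fold), Gm32235 (11.6-fold) and Coro2b, a coronin (11.4-fold), followed. A Tet2-null peak was present at all 5 and a WT peak at Gm13858 alone. H3K27ac was present in Tet2-null and double-deficient cells at 3 of them (Gm20628, Rbbp8 and Coro2b) and in no genotype at the other 2.

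Among gained regions that held a protein-coding start, the first 10 ran from 12.6-fold at Fign, a microtubule-severing ATPase, to 7.98-fold at Nhsl1. Elovl2, a fatty acid elongase (9.30-fold), Ifi203, of the p200 family like Mndal (9.28-fold), Ctla2a, a cysteine protease inhibitor (8.89-fold), Ccdc60 (8.57-fold), Synj2, a phosphoinositide phosphatase (8.41-fold), the zinc finger genes Zfp972 (8.37-fold) and Zfp458 (8.10-fold), and Xkr6 (8.10-fold) lay between. The gene went from unmarked to marked at 4 of them (Fign, Ifi203, Ccdc60 and Zfp972). Ifi203 had H3K27ac in double-deficient cells alone and Synj2 in all 4 genotypes, and the other 8 had none. WT peaks were present at 6 and Tet2-null peaks at 6 of the 10. All but Elovl2 and Xkr6 had under 60% G and C.

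Over the 100 strongest regions of each class the contrast in sequence was wider than over all. Of the 100 strongest lost regions (9.37-fold to 26.1-fold), 74 had at least 60% G and C and 33 held a start, and 16 had H3K27ac in Ep300-deleted and 1 in double-deficient cells. Of the 100 strongest gained regions (7.84-fold to 48.0-fold), 6 had at least 60% G and C and 18 held a start, and 7 and 24 had H3K27ac. WT peaks overlapped 79 lost and 58 gained regions, and Tet2-null peaks 54 and 79. Fold enrichment and lost or gained state come from the same libraries, and these counts are descriptions.

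At the level of genes, 573 of 17969 genes with an Ep300-deleted peak within 3000 bp of a start had no double-deficient peak there (3.19%), and 468 of 17864 genes with a double-deficient peak had no Ep300-deleted one (2.62%). For protein-coding genes the shares were 2.54% lost (341 of 13404) and 1.69% gained (225 of 13288), and for lincRNA genes 5.54% (51 of 920) and 8.62% (82 of 951). The stem and progenitor markers Kit, Cd34, Gata2, Flt3 and Meis1 and the 5 erythroid and megakaryocyte markers all had promoter H3K4me3 in each genotype, and the granulocyte and monocyte markers in 4 or 5 of 6. The B cell antigens Cd79a and Ms4a1 and the T cell antigens Cd3e, Cd4 and Cd8a had none in any genotype.

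Regulators of stem and progenitor cells were retained at 34 of 35 genes, granulocyte and monocyte genes at 28 of 37 with the other 9 unmarked in both lists, and housekeeping genes at 26 of 26. With 3.19% lost and 2.62% gained among all marked genes, none lost or gained in lists of this length is near the share of all genes. The 27 enzymes of H3K4 and DNA methylation and the 25 acetyltransferases and deacetylases were retained throughout. Ep300 itself, where a promoter peak does not show whether the floxed sequence was deleted, had peaks of 37.5-fold in WT, 55.9-fold in Ep300-deleted, 41.1-fold in Tet2-null and 26.6-fold in double-deficient cells. Tet2, Myb, Notch1 and Dntt were retained. Dntt, the template-independent polymerase of lymphoid progenitors, had 1237 bp of peaks in WT, 439 bp in Ep300-deleted, 1507 bp in Tet2-null and 593 bp in double-deficient cells. Of the Hoxb genes, Hoxb2 to Hoxb7 were retained and Hoxb8 was gained with a peak of 267 bp and 3.10-fold, of which 3.87% of the list was weaker.

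B lymphoid genes were lost at 4 of 19 (21.1%), 15 were retained, none was gained and 10 were unmarked in both lists, beside 3.19% lost of all genes. The 4 were Pax5, the factor of B cell commitment, Ebf1, an early B cell factor, Rag2, a subunit of the V(D)J recombinase, and Blnk, an adaptor of B cell receptor signaling. Pax5 had 8.53-fold enrichment in Ep300-deleted cells (chr4:44703812-44704430), above 36.2% of the list, and peaks of 4.11-fold in WT and 3.38-fold in Tet2-null cells. Ebf1 (7.83-fold in WT and 3.53-fold in Ep300-deleted cells), Rag2 (4.36-fold and 3.37-fold) and Blnk (8.64-fold and 5.09-fold) had no peak in Tet2-null or double-deficient cells, so that both Tet2-/- libraries lacked them. These were weak peaks, since only 5.04% (Ebf1), 4.06% (Rag2) and 18.2% (Blnk) of the Ep300-deleted list was weaker. The part of peak strength in the count of lost genes was not tested. The peaks of Pax5 and Ebf1 had 73.0% and 69.3% G and C, and those of Rag2 and Blnk 49.3% and 52.0%. Over the whole list, 20 of 29 genes had a WT peak, 19 an Ep300-deleted, 16 a Tet2-null and 15 a double-deficient peak. The B cell antigens Cd79a and Ms4a1 had no peak in any genotype, and the part of B cell content in these counts was not tested.

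T and NK lymphoid genes were lost at 2 of 25 and gained at 2 of 25, beside 3.19% lost and 2.62% gained of all genes. Bcl11b, a factor of T cell commitment, had peaks in Ep300-deleted (7.92-fold) and Tet2-null cells (6.46-fold), and Gzmb, which encodes granzyme B, in Ep300-deleted cells alone (3.06-fold). Prf1, which encodes perforin, had them in Tet2-null (2.55-fold) and double-deficient cells (5.81-fold), and Ifng, which encodes interferon gamma, in double-deficient cells alone (3.42-fold). Erythroid and megakaryocyte genes were retained at 31 of 34, with 1 of 32 lost (3.12%) and 2 of 33 gained (6.06%), beside the same 3.19% and 2.62% of all genes. Rhag, an ammonium channel of red cells, had peaks in WT (11.8-fold) and Ep300-deleted cells (7.63-fold) and in neither Tet2-/- library, and Ppbp and Gp6, of platelets, had weak peaks in double-deficient cells alone (2.56-fold and 3.38-fold). Interferon response genes were retained at 34 of 38, and 1 of 35 was lost and 1 of 35 gained (2.86% each), again near the shares of all genes. Oas2 was lost, and Ifit3 had peaks only in Tet2-null (8.10-fold) and double-deficient cells (7.58-fold). Of the signaling genes named in the study, Jag2, a Notch ligand, was lost and had no Tet2-null peak either, and 29 of 32 were retained.

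Of the developmental transcription factors of other tissues, most of those with a peak were retained. Of 60 with an Ep300-deleted peak 15 were lost (25.0%), of 52 with a double-deficient peak 7 were gained (13.5%), beside 3.19% and 2.62% of all genes, 45 were retained and 49 were unmarked in both. The lost ones included Pax6, Nkx2-2, Six2, Dlx6 and Zic2, and the gained ones Nkx6-1, Isl1, Emx1 and Twist1. The folds of the lost and gained members ran from 2.02 at Foxa1 to 6.70 at Nkx2-2 in Ep300-deleted cells and from 2.67 at Nkx6-2 to 5.40 at Emx1 in double-deficient cells. None of the 22 had H3K27ac in any genotype, and 13 of the 15 lost genes (not Foxc2 and Barx2) had H3K4me1 in both Ep300-deleted and double-deficient cells. Base composition of the members overlapped in part. The peaks of the lost ones had 58.3% (Vax2) to 74.7% (Barx2) G and C, with all but Vax2 at 60% or more. Those of the gained ones had 53.0% (Nkx6-2) to 64.0% (Twist1), and Nkx6-1, Isl1, Emx1, Alx1 and Twist1 were also at 60% or more. The part of base composition in the count of lost members, in the range where the Ep300-deleted list stood apart, was not tested. The Hoxa genes Hoxa2, which had a peak in Ep300-deleted cells alone, and Hoxa13, which had one in all libraries but the double-deficient one, were lost. Germ line genes, 33 of 45 unmarked, showed no change of state.

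**Figure D5:**
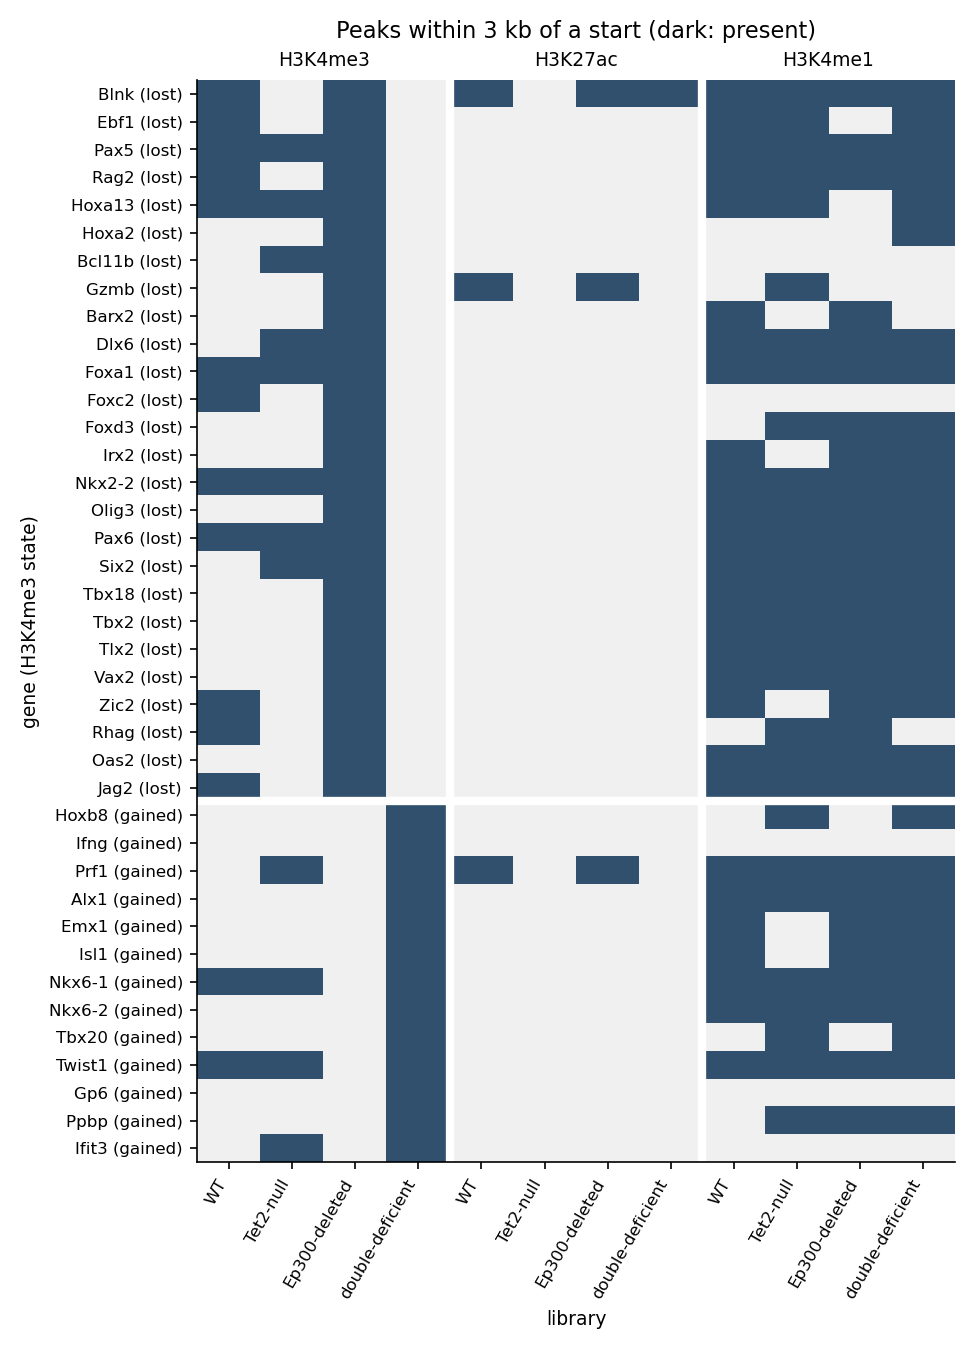
Genes of the 13 lists whose promoter H3K4me3 was lost or gained, with the presence (dark) of an H3K4me3, H3K27ac or H3K4me1 peak within 3 kb of a start in each genotype, 1 library each. Ebf1, Rag2, Blnk, Foxc2, Zic2, Rhag and Jag2 have H3K4me3 in WT and Ep300-deleted cells and in neither Tet2-/- library, and Ifit3 and Prf1 the reverse.

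The width of retained regions changed little. The ratio of bases covered in double-deficient to Ep300-deleted cells had a median of 1.02 (quartiles 0.929 and 1.12), and 56.5% of regions were wider in double-deficient cells. In the 3954 regions with at least 2000 covered bases in either list the median was 1.00. By base composition it went from 1.06 below 45% G and C to 0.933 at 75% or more, where 29.4% were wider. Among wide regions, the largest ratio was at Cyp26a1, a retinoic acid hydroxylase, with 439 bp in Ep300-deleted and 2167 bp in double-deficient cells (chr19:37696363-37698529). Shisa5 (1.82), Csk, the kinase that restrains Src family members (1.79), Adamts1, a secreted metalloprotease (1.65), and Abhd14b (1.59) came next. The smallest was at Ypel4, with 2327 bp and 597 bp (chr2:84733767-84736093). Gse1 (0.278), Fam53b (0.369), Fads3 (0.439) and Lrrc32, a docking receptor of latent TGF-β (0.531), followed. Of these 5, Fads3 had H3K27ac in Ep300-deleted and not in double-deficient cells, Ypel4, Fam53b and Lrrc32 had it in neither, and Gse1 in all 4 genotypes.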

How the data were processed

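Lin- bone marrow cells were isolated by lineage depletion, and chromatin was precipitated with antibodies against H3K4me3, H3K27ac, H3K4me1 or H3, after addition of Drosophila chromatin. Per the labels and the methods, the authors used cutadapt 1.15 for trimming, BWA 0.7.13 for alignment to mm10 and Picard for duplicates, left out blacklisted positions, and called narrow peaks with MACS2 2.1.1.20160309 on each library against H3, keeping those found in pseudo-replicates at a stated q-value under 0.05. The deposited lists give each peak's position, summit, score, fold enrichment (a ratio over H3) and the −log10 of its p-value and q-value. Of the 2 H3K4me3 lists, 1.08% (Ep300-deleted) and 1.38% (double-deficient) of peaks had a q-value above 0.05. The lists were not scaled by the Drosophila chromatin, as far as the methods describe, and the sources differ on single-end or paired-end reads. Peak lists give no read depth, so depth per sample is unknown. A peak that narrowly missed the threshold in 1 list counted as absent, and the number of peaks can move with depth and yield. Fold values of different libraries are therefore given side by side as values, with no test, and for some the share of weaker peaks in the own list is added.

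Lists were restricted to the 19 autosomes, merged and compared by an overlap of at least 1 bp (Python 3.11.15, numpy 2.4.6, pandas 2.3.3, scipy 1.17.1). Starts, exons and gene types came from GENCODE release M21 (Ensembl 96), with 125977 distinct starts of 51229 genes, and a promoter was 3000 bp on either side of a start. Sequence was read from GRCm38 with pysam 0.24.0, in 300 bases around the summit or the midpoint of a region. The midpoint was added after the data were seen, since the summits of the Ep300-deleted list lie in richer sequence. Lost and gained counts equalled those known in 20 of 20 simulated comparisons and those of bedtools 2.31.1 in the data, and nearest starts equalled a full search in 500 of 500 regions. Shares carry exact 95% Clopper-Pearson intervals, and no test between genotypes was run because each had 1 library.

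Named regions were the 10 lost and 10 gained of highest fold holding a protein-coding start, the 5 of each over 3000 bp from a start, the 5 of each at promoters where H3K27ac was present in the list with H3K4me3 and absent in the other, and the 5 retained with the largest and the smallest width ratio among those with at least 2000 covered bases. Named genes were Ep300, Tet2, Myb, Notch1, Dntt, the Hoxb genes and every lost or gained member of 13 gene lists (502 entries). The members and lists were chosen with earlier results of these data known. Alternatives were an overlap of at least 50%, a gap of 500 bp, a −log10 q of at least 5, lists of equal length, a fold at or above the median, a promoter of 1000 bp, protein-coding starts and other sequence windows. H3 and H3K27me3 samples were not analysed here, and some marker genes are not reported here.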

Additional observations from a re-analysis of the deposited data

Results flagged for a closer look

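With the loss of Tet2, some list sizes differed in opposite directions with Ep300 intact and with Ep300 deleted. Others differed in the same direction. These differences were not tested, since each genotype had 1 library. Covered H3K4me3 sequence was 0.331 Mb lower in Tet2-null than in WT cells (a difference of -0.331 Mb), and 0.330 Mb higher in double-deficient than in Ep300-deleted cells. For H3K27ac the differences in covered sequence were -3.75 Mb and 0.312 Mb, and those in median peak width -9 bp and 131 bp. The number of H3K4me1 peaks differed by -9442 between Tet2-null and WT cells and by 2412 between double-deficient and Ep300-deleted cells. In the same order, the numbers of H3K4me3 peaks (1480 and 2169) and H3K27ac peaks (-5042 and -4344) each kept their sign. So did the median width of H3K4me3 peaks (-64 bp and -91 bp). For H3K4me1, covered sequence (4.72 Mb and 2.84 Mb) and median width (80 bp and 9 bp) were higher in both comparisons.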

How the results depend on the processing

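Of 116 recomputed values, 53 stayed within the interval, spread or 1.5 times of the reported value and 63 did not. Gained regions outnumbered lost ones by share except in H3K4me3 lists of equal length and above the median fold, and lost genes outnumbered gained ones except under 60% G and C. Lost regions stayed above gained ones in promoters and in WT peaks without a Tet2-null one. H3K27ac stayed higher in the Ep300-deleted list at lost and lower at gained regions, but at a −log10 q of at least 5 the lost shares were close (7.07% and 6.12%). At retained regions its order turned, from 54.3% (Ep300-deleted) and 51.8% to 47.7% and 52.2% at that limit and to 49.5% and 51.8% with H3K27ac lists of equal length. In Ep300-deleted cells it was at fewer lost than gained regions (12.9% and 13.8%), and at more with H3K4me3 lists of equal length (14.8% and 13.4%) and under 60% G and C (18.6% and 14.4%). With a gap of 500 bp allowed, lost regions were 7.19% and gained 9.51%, promoters took 55.9% and 38.1%, H3K27ac was at 16.7% (Ep300-deleted) and 8.90% (double-deficient) of lost and 17.9% and 21.3% of gained regions, and for gained regions the Tet2-null list lacked 18.6% of those with and held 42.4% of those without a WT peak. At a −log10 q of at least 5, lost regions were 8.96% and gained 10.04%, lost regions were at promoters in 68.3%, Ep300-deleted H3K27ac was at 7.07% of lost and 9.37% of gained regions, the Tet2-null list lacked 39.9% of lost and 14.99% of gained regions with a WT peak, and held 51.0% of gained ones without. With H3K4me3 lists of equal length, lost regions were 13.8% and gained 8.86%, gained promoters 48.4%, H3K27ac at lost regions 14.8% and 8.56%, the Tet2-null list lacked 52.2% of lost and 27.7% of gained regions with a WT peak, and held 17.8% and 34.9% of those without. With H3K27ac lists of equal length, Ep300-deleted H3K27ac was at 8.85% of lost and 10.6% of gained regions, and at an overlap of 50% at 12.5% of gained ones. Counting only regions at or above the median fold left 18 lost (0.0779%) and 7 gained (0.0294%). A promoter of 1000 bp took 42.3% of lost and 28.4% of gained regions, and protein-coding starts alone 58.8% and 42.5%. In regions under 60% G and C, an alternative chosen after seeing the data, 12.2% were lost and 19.8% gained, promoters took 56.2% of lost regions, H3K27ac was at 18.6% and 9.31% of them, and the Tet2-null list held 28.1% of lost regions without a WT peak. Keeping only peaks whose own summit had under 60% G and C gave 993 lost and 4215 gained genes, since the summit of each list decides there. The causes of the other movements were not tested. Every share rests on 1 library a genotype and mark, so the spread between animals is unknown, and the unknown depth of the lists limits what the absence of a weak peak can mean. No paired analysis was possible because each genotype and mark had 1 library.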
